A study of Danio rerio with 12 samples.

Results

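Ion channels and transmitter receptors decide how a sympathetic neuron or its tumour cell reacts to acetylcholine, catecholamines and a change of voltage. Here 153 genes of these families were measured among 14581 genes in all. They were taken by a rule on gene names that used no measured value, but with earlier results of these data known. The rule covers the genes of potassium channels (kcn), sodium channels (scn), calcium channels (cacn) and nicotinic acetylcholine receptors (chrn). It also covers the genes of GABA-A receptors (gabr), glycine receptors (glra) and AMPA, NMDA and kainate glutamate receptors (gria, grin1 and grin2, grik). Receptors for serotonin (htr), dopamine (drd) and noradrenaline (adra and adrb) complete it. The name rule takes in accessory subunits as well as pore-forming ones.

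RNA came from EGFP-positive cells sorted out of zebrafish (Danio rerio) neuroblastomas, with 4 libraries from fish carrying a MYCN transgene and 8 from fish carrying a MYC transgene. All 12 samples share the EGFP label used for the sort and the same extraction, and no untreated or wild-type cells were analysed here. The labels give neither the promoter of the transgenes nor strain, age or whether fish were pooled. In the zebrafish neuroblastoma models known by these names the dopamine beta-hydroxylase promoter directs the oncogene to sympathoadrenal cells. The labels do not say that replicates came from separate fish, so a p-value here reflects only how much these libraries vary, which may be technical.

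As background, sympathetic neurons receive acetylcholine through nicotinic receptors, which are ring-shaped cation channels of alpha and beta subunits. They release noradrenaline, and the alpha-2 adrenergic and D2-like dopamine receptors on their own terminals are coupled to inhibitory G proteins and hold that release back. Voltage-gated sodium, calcium and potassium channels shape the firing in between.

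Calls were made among the receptors for catecholamines and acetylcholine and, in smaller shares of the genes tested, among the potassium, sodium and calcium channel families. The receptors for GABA, glycine, glutamate and serotonin gave none. Whether families differed from each other was not tested. In MYC cells the alpha-2 adrenergic receptor genes adra2c and adra2da, the dopamine receptor gene drd4-rs and the nicotinic subunit gene chrnb3b were lower, and the nicotinic subunit gene chrna6 was higher. Levels are given in FPKM, fragments per kilobase of transcript relative to the library's mapped fragments, as deposited. Of the 153 genes, 56 reached 1 FPKM in at least 4 of the 12 libraries and were tested with limma on log2(FPKM + 1) within the whole table of 9606 such genes. Of these 56, 10 fell (17.9%), 3 rose (5.36%) and 43 did not pass, at a Benjamini-Hochberg adjusted p under 0.05. Over all genes tested, 7.63% fell, 5.77% rose and 13.4% passed in either direction. The share of members that rose was thus near the background and the share that fell was above it. Among the members that fell, kcnq1 and kcnip3b passed the filter through the MYCN libraries alone. Too few MYC libraries reached 1 FPKM for scn1ba and drd2b to pass without MYCN (5 and 7 libraries in all). The share that fell thus includes genes that were tested because they were high in MYCN. The median log2 fold change of the tested members (MYC minus MYCN, on the FPKM + 1 scale) was -0.20, beside -0.05 over all genes tested. The counts of higher and lower members were 5 and 10 after median-ratio scaling and 1 and 11 after rescaling to a common sum. That last rescaling moved the median of all genes to -0.22. Without MYCN 1, MYCN 3 or MYCN 4, 1 member was called higher. Without MYCN 4, 6 were called lower. Against MYC 5 to 8 alone, 2 were higher and 6 lower. Against MYC 1 to 4 alone, 2 were higher and 8 lower, where 4.8% of all genes were higher and 4.69% lower. With the replicate number as a block, the same 8 libraries gave 4 higher and 14 lower, where 10.2% of all genes were higher and 13.3% lower. The counts under the other alternatives stand without such shares. They do not show whether the members moved apart from all genes. The call of kcnq1 held wherever it was tested, but the filter of 5 FPKM removed it. Nearly all other alternatives kept the genes chosen by the main filter, which kcnq1 passed through MYCN alone, so they are no separate support. The calls of adra2c, adra2da, chrna6, chrnb3b and drd4-rs held under every alternative. The values of these genes lead the account below.

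**Figure D1:**
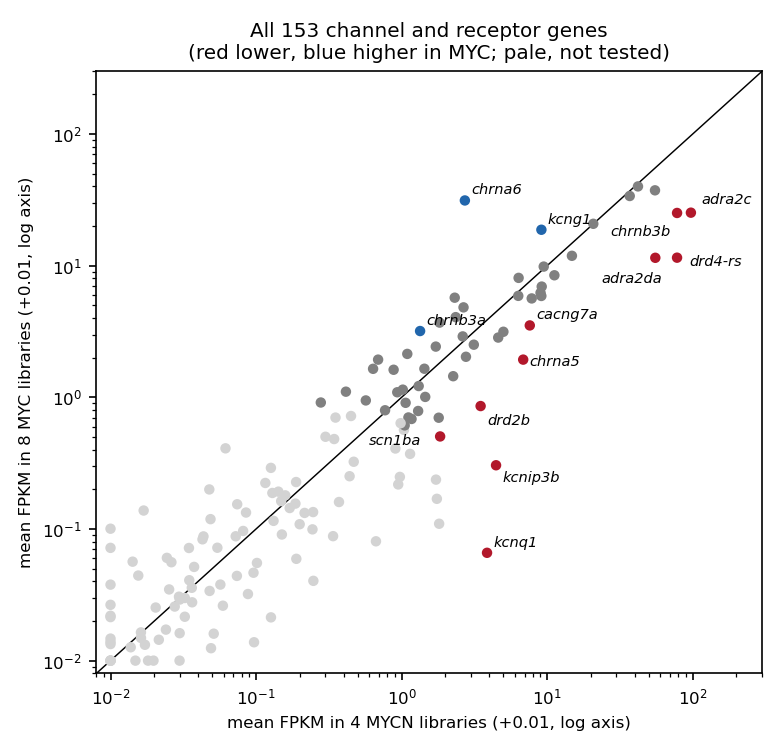
Mean FPKM of each of the 153 channel and receptor genes in the 4 MYCN libraries (horizontal) against the 8 MYC libraries (vertical), both on log axes after adding 0.01. Red points were called lower in MYC and blue points higher, dark grey points were tested without a call, pale points were below the filter, and the line marks equal means. The red points adra2c, chrnb3b, drd4-rs and adra2da lie below the line at the high end, and chrna6 lies above it.

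Most members were low. Their mean over the 12 libraries was at least 10 FPKM for 11 genes, 1 to 10 FPKM for 35 and under 1 FPKM for 107, of which 60 were under 0.1 FPKM. The most abundant by mean FPKM was adra2c (49.3), followed by cacnb1 (43.3), chrnb3b (42.9), scn3b (40.7), cacnb4b (34.9) and drd4-rs (33.7). Of the 97 members below the filter none exceeded 5.04 FPKM in any library. The 4 genes adra2db, cacnb2b, cacng1 and htr5a were listed at 0 in all 12 libraries. A listed 0 need not mean no expression, since eef1a1l1, an elongation factor gene, was also among the 705 genes listed at 0 throughout.

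The libraries summed to 567331 to 1058303 FPKM, and 8688 to 9844 genes reached 1 FPKM in each. The MYC libraries numbered 1 to 4 and 5 to 8 were also taken as separate sets, in view of the listed zeros. In these, 12 genes were at 0 throughout MYCN and above 0 elsewhere, 2 genes likewise for MYC 1 to 4, and 6 for MYC 5 to 8. Of these genes, 7, 1 and 0 averaged at least 10 FPKM elsewhere. The split of the MYC libraries thus rests on few and mostly low genes, and other groupings were not counted. No tested member was at 0 throughout a set. Because the MYCN libraries form a set of their own, set and genotype cannot be told apart. Values against each MYC set are therefore given where they matter. In sorted bulk RNA, fewer cells of a type and less RNA per cell cannot be told apart either.

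Cell type markers were read beside these results and beside the 7.63% of all genes tested that fell and the 5.77% that rose. Of 18 tested sympathoadrenal markers 6 fell and none rose, and their summed level was 6291 to 8412 FPKM in MYCN and 3844 to 5562 in MYC, so that the groups did not overlap. Of 19 tested macrophage markers 10 rose and none fell, with sums of 163 to 926 FPKM in MYCN and 484 to 2247 in MYC and none of the markers at 0 throughout. The other lists had at most 1 call in either direction: skeletal muscle none of 8 tested (sums of 36.2 to 48.3 and 30.3 to 92.9 FPKM), glia 1 higher and 1 lower of 7 (230.5 to 335 and 129.6 to 468), erythroid none of 8 (324 to 732 and 57.7 to 1431), interrenal none of 4 (10.02 to 18.2 and 6.06 to 53.8), kidney 1 lower of 4 (13.9 to 19.3 and 7.21 to 19.8), and lymphocyte 1 lower of 5 (8.98 to 39.4 and 4.81 to 49.2). Of 17 glial genes measured, 10 stayed under 1 FPKM in all libraries, among them sox10, foxd3, plp1a, mpz, gfap and s100b. Another 3 glial genes averaged at least 10 FPKM. Of 23 muscle genes measured, 9 stayed under 1 FPKM in all libraries, among them myhz2, atp2a1 and myog, and 2 others averaged at least 10 FPKM. The macrophage sums were 892 to 2247 FPKM in MYC 1 to 4 and 484 to 607 FPKM in MYC 5 to 8. All of MYC 5 to 8 thus lay below MYCN 3 (926 FPKM). The part of sympathoadrenal and macrophage transcripts in the receptor results was not tested.

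Of the 14 nicotinic subunit genes 4 were tested, and 2 rose and 2 fell. The gene chrna6 encodes the alpha-6 subunit, which in mammals is made mainly by catecholamine neurons. It stood at 2.36, 2.12, 1.29 and 5.09 FPKM in MYCN 1 to 4, and in the 8 MYC libraries at 10.7 (lowest), 29.1 (median) and 52.7 FPKM (highest). Every MYC library lay above every MYCN library. Mean levels were 2.71 ± 1.65 (SD, n = 4) and 31.3 ± 14.9 FPKM (n = 8), a log2 fold change of 3.07 ± 0.38 (SE, limma adjusted p = 0.000202). MYC 1 to 4 alone gave 2.64 and MYC 5 to 8 alone 3.50, with mean levels of 22.5 and 40.2 FPKM.

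The gene chrnb3b encodes a beta-3 subunit, an accessory subunit that in mammals often assembles with alpha-6. It went the other way, from 62.8, 43.6, 68.9 and 138 FPKM in MYCN 1 to 4 to 16.9, 24.5 and 35.3 FPKM (lowest, median and highest) in MYC. These groups did not overlap either, and MYCN 4 was the highest library. The log2 fold change was -1.51 ± 0.28 (adjusted p = 0.00349). Its duplicate chrnb3a, a second beta-3 gene, was low: 1.40, 1.80, 0.462 and 1.67 FPKM in MYCN and 1.35, 3.06 and 4.49 FPKM (lowest, median and highest) in MYC, with MYC 3 inside the MYCN range. It rose with a log2 fold change of 0.84 ± 0.26 (adjusted p = 0.0434), but that call was lost in 15 of 21 alternatives (adjusted p up to 0.179), among them without any one of the MYCN libraries, or of the MYC libraries other than MYC 3. In RefSeq's annotation of the GRCz12tu assembly chrnb3a and chrna6 lie next to each other but for the locus LOC108190615, and chrnb3b lies elsewhere, beside chrnb5b and itga6l.

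The fourth tested subunit gene, chrna5, encodes an accessory alpha subunit known from mammalian autonomic ganglia. It stood at 12.6, 4.29, 5.03 and 5.45 FPKM in MYCN and at 0.171, 1.02 and 7.81 FPKM (lowest, median and highest) in MYC, where MYC 8 reached into the MYCN range. It fell, with a log2 fold change of -1.64 ± 0.47 and an adjusted p of 0.0339. The call was lost in 10 of 22 alternatives: without any MYCN library (adjusted p = 0.0524 to 0.1185), without MYC 1, MYC 2 or MYC 5 (0.0508 to 0.0585), with no filter (0.0593), with library weights (0.0530) and against MYC 5 to 8 (0.202).

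The summed nicotinic level overlapped between the groups, at 52.6 to 153 FPKM in MYCN and 36.5 to 100.5 in MYC, while the shares of chrnb3b and chrna6 in this RNA did not. Which subunits assembled into receptors was not measured. In MYCN libraries chrnb3b held 73.1% to 89.7% of that sum and chrna6 1.67% to 4.03%. In MYC libraries chrnb3b held 22.5% to 63.3% and chrna6 29.2% to 69.8%. The ratio of chrna6 to chrnb3b was 0.0187 to 0.0486 in MYCN and 0.462 to 3.11 in MYC libraries. This ratio restates the opposite shifts of both genes, which were picked from their calls, and the shares largely do so too. The 6 muscle-type subunit genes (chrna1, chrnb1, chrnb1l, chrnd, chrne and chrng), which encode the receptor of skeletal muscle at its embryonic or adult stage, were all below the filter. Their highest value was chrne in MYCN 1 (4.31 FPKM), where the summed muscle markers were 43.2 FPKM, inside the range of the other MYCN libraries. The 6 genes summed to 6.02 FPKM in MYCN 1 and to 0.710 to 3.24 FPKM in the other MYCN libraries. Whether muscle cells added to these values was not tested.

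**Figure D2:**
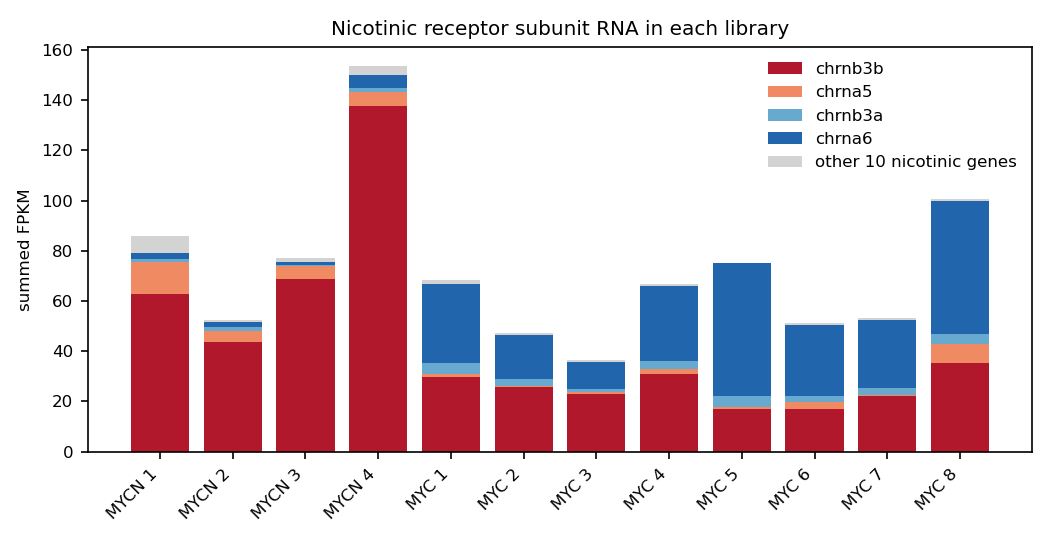
Summed FPKM of the nicotinic receptor subunit genes in each of the 12 libraries, as stacked bars with 1 colour for each of the 4 tested genes and grey for the other 10 genes. The bars of the MYCN libraries are mostly chrnb3b (73.1% to 89.7%), and those of the MYC libraries hold a chrna6 block of 29.2% to 69.8%.

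Of the 11 adrenergic receptor genes 3 were tested, all alpha-2 receptors, and 2 of them fell. The gene adra2c encodes an alpha-2C receptor, a feedback receptor of noradrenergic terminals in mammals. It stood at 93.8, 114, 74.7 and 107 FPKM in MYCN 1 to 4 and at 13.7, 24.2 and 36.0 FPKM (lowest, median and highest) in MYC. The lowest MYCN library was above the highest MYC library. Means were 97.4 ± 17.3 and 25.3 ± 7.92 FPKM (SD), and the log2 fold change was -1.95 ± 0.25 (SE, adjusted p = 0.000232). The first MYC set alone gave -1.64 and the other -2.26.

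The gene adra2da encodes an alpha-2D receptor, a subtype that fish have kept. Its levels were 77.4, 66.2, 48.6 and 29.5 FPKM in MYCN and 5.04, 8.41 and 25.3 FPKM (lowest, median and highest) in MYC, without overlap, although MYCN 4 and MYC 5 came close. Its log2 fold change of -2.27 ± 0.39 (adjusted p = 0.00191) was nearly the same against either MYC set (-2.28 and -2.27). The alpha-2A receptor gene adra2a, at 5.001 and 3.14 FPKM on average, did not pass (-0.54 ± 0.30, adjusted p = 0.249). The summed adrenergic level was 126 to 186 FPKM in MYCN and 22.1 to 59.5 FPKM in MYC. The genes adra2b and adra2db, the alpha-1 gene adra1bb and the 5 beta receptor genes stayed below the filter, with at most 1.11 FPKM (adrb3b in MYC 4).

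Of the 9 dopamine receptor genes 3 were tested, all of the D2-like class, and 2 of them fell. The gene drd4-rs, a D4-related receptor, stood at 55.8, 29.5, 94.9 and 133 FPKM in MYCN 1 to 4 and at 5.39, 11.1 and 22.2 FPKM (lowest, median and highest) in MYC. The MYCN libraries spread widely, but none reached down to a MYC library. Its log2 fold change was -2.61 ± 0.43 (adjusted p = 0.00149), the lowest of the 56 tested members. The D2 gene drd2b, at 1.61, 4.16, 2.07 and 6.10 FPKM in MYCN and 0.379, 0.726 and 1.44 FPKM (lowest, median and highest) in MYC, fell (log2 fold change -1.19 ± 0.28, adjusted p = 0.0116). These groups did not overlap, but the call was lost without MYCN 4 (0.0524) and against MYC 5 to 8 (0.0997). In MYC only MYC 5, MYC 6 and MYC 8 reached 1 FPKM, so drd2b passed the filter only with the MYCN libraries. With a pseudocount of 0.1 FPKM the log2 fold change of drd2b was -1.85.

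Its duplicate drd2a stood at 6.33 ± 4.07 and 5.89 ± 1.27 FPKM (SD) with full overlap (log2 fold change 0.08 ± 0.31, adjusted p = 0.904), and its sign turned under several alternatives. The gene drd4-rs held 80.1% to 94.3% of the summed dopamine receptor FPKM in MYCN and 36.6% to 81.1% in MYC, where only MYC 3 reached the MYCN range. The D1 gene drd1b and the genes drd3, drd4a, drd4b, drd7 and drd2l were below the filter, with a highest value of 2.54 FPKM for drd2l in MYC 7. In RefSeq's annotation drd4-rs lies near cacna2d1a, a calcium channel gene described below that did not pass, with cdhr5-rs between them.

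**Figure D3:**
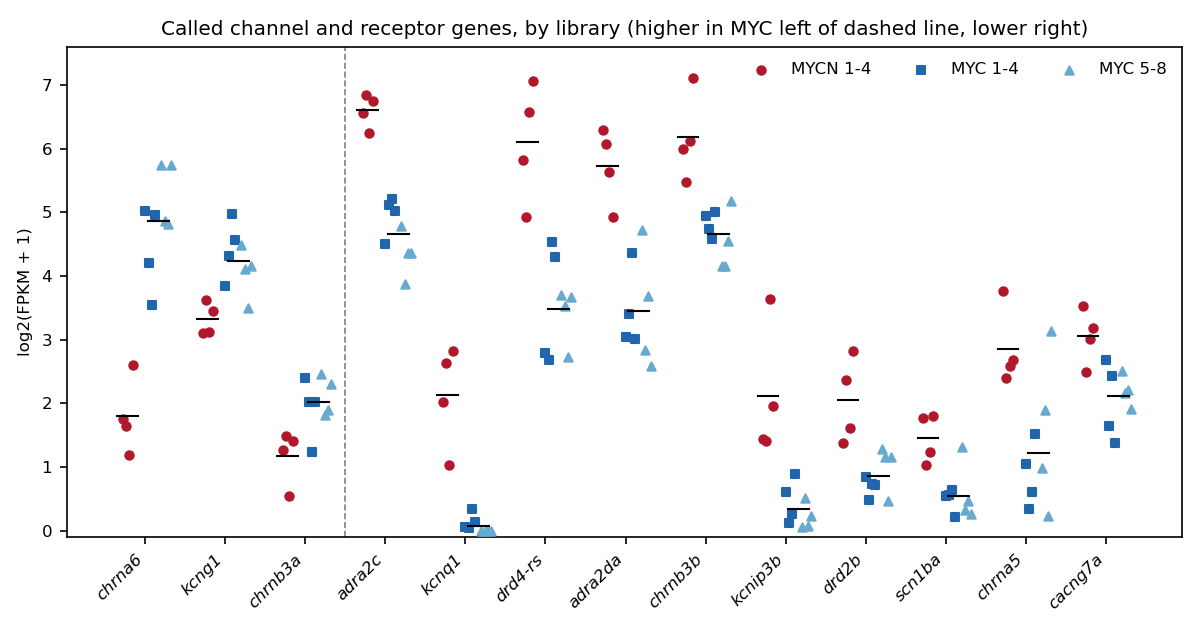
Level of the 13 called genes in each library, as log2(FPKM + 1), with MYCN 1 to 4 as circles, MYC 1 to 4 as squares and MYC 5 to 8 as triangles. Black lines mark the group means, and the dashed line separates the 3 genes higher in MYC from the 10 lower in MYC. For chrna6, adra2c, kcnq1, drd4-rs, adra2da, chrnb3b, kcnip3b and drd2b no MYCN library overlaps a MYC library. Of these, kcnq1 and kcnip3b reached 1 FPKM in MYCN libraries only.

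The libraries of the 2 groups did not overlap for 8 of the 13 called members, and for 9 of the 56 tested. For kcnq1 and kcnip3b among them this follows from the filter, which they passed through the MYCN libraries alone. The gene drd2b also passed only with the MYCN libraries. Over all genes tested, 9.33% did not overlap. The ninth was kcnc1a, described below, which had no call. Over all 153 genes the summed level was 585 to 779 FPKM in MYCN and 358 to 506 FPKM in MYC. The 140 members without a call overlapped, at 263 to 348 FPKM in MYCN and 228 to 338 FPKM in MYC. The 13 called members, set apart by these same values, summed to 289 to 455 and 102 to 168 FPKM. The 4 genes adra2c, adra2da, drd4-rs and chrnb3b, grouped after their values were seen, made up 253 to 407 FPKM of it in MYCN and 47.3 to 101 FPKM in MYC.

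**Figure D4:**
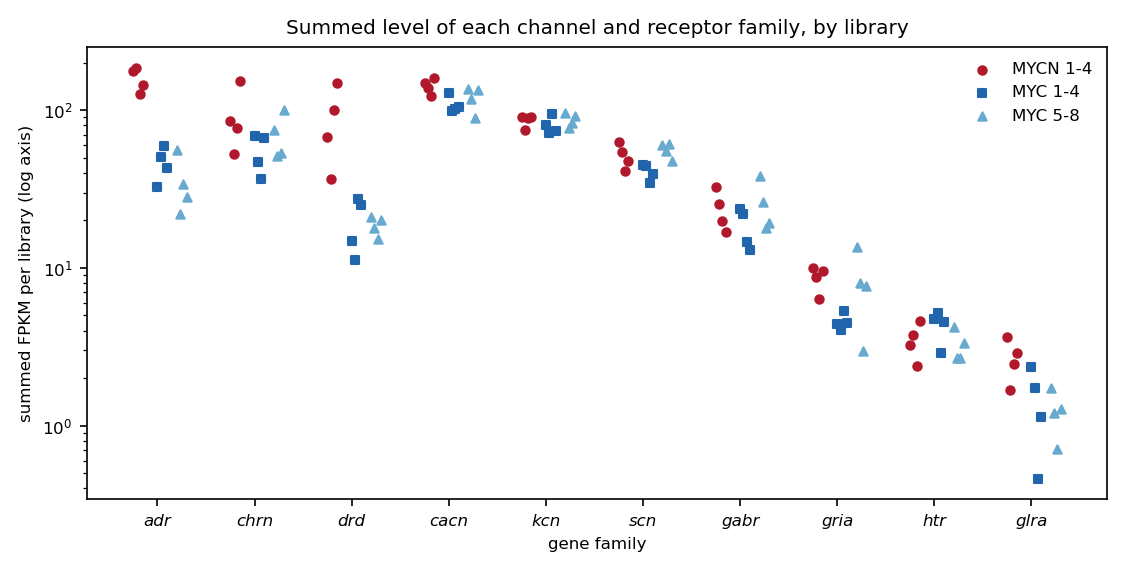
Summed FPKM of each gene family in each library on a log axis, with MYCN 1 to 4 as circles, MYC 1 to 4 as squares and MYC 5 to 8 as triangles. The adrenergic (126 to 186 against 22.1 to 59.5) and dopamine families (36.8 to 149 against 11.1 to 27.4) are apart between genotypes, and the potassium, sodium and nicotinic families overlap.

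Potassium channels are the largest family, with 55 genes, of which 18 were tested, 1 rose, 2 fell and 15 did not pass. The share called was 16.7%, beside 13.4% of all genes tested. Their summed level was 74.6 to 90.2 FPKM in MYCN and 71.8 to 95.8 FPKM in MYC. The gene kcnq1 encodes a slow voltage-gated channel best known for ending the cardiac action potential. It stood at 3.08, 5.21, 1.05 and 6.09 FPKM in MYCN 1 to 4. In MYC 1 to 4 it stood at 0.0448, 0.0250, 0.267 and 0.105 FPKM, in MYC 7 at 0.00572 FPKM, and in MYC 5, MYC 6 and MYC 8 it was listed at 0. The gene reached 1 FPKM in the 4 MYCN libraries only. It was thus tested through the group where it is high, which alone kept the groups from overlapping. Its p was the smallest of the family (log2 fold change -2.06 ± 0.27, limma adjusted p = 0.000322). With a pseudocount of 0.1 FPKM its log2 fold change was -4.57. Its mammalian partner family is represented by kcne4, an inhibitory accessory subunit, which did not pass (adjusted p = 0.908).

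The gene kcnip3b encodes a calcium-binding partner of the A-type potassium channels. It stood at 1.72, 1.67, 11.5 and 2.89 FPKM in MYCN and at 0.0372, 0.187 and 0.853 FPKM (lowest, median and highest) in MYC. MYCN 3 was by far the highest library. The gene reached 1 FPKM in the 4 MYCN libraries only, so passing the filter already kept the groups from overlapping. Its log2 fold change was -1.77 ± 0.35 with 1 FPKM added (adjusted p = 0.00496), -3.36 with a pseudocount of 0.1 FPKM, and not called against MYC 1 to 4 alone (0.0503). The A-type pore gene kcnd2, at 9.01 and 6.22 FPKM on average, and the other tested partner kcnip1b, at 7.83 and 5.63 FPKM, did not pass (adjusted p = 0.442 and 0.690).

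The gene kcng1, the most abundant member of the family, encodes a subunit that is silent alone and modifies other voltage-gated channels. It stood at 7.61, 11.3, 7.73 and 9.91 FPKM in MYCN and at 10.3, 17.9 and 30.6 FPKM (lowest, median and highest) in MYC, with MYC 7 inside the MYCN range. It rose, with a log2 fold change of 0.92 ± 0.25 and an adjusted p of 0.0274. That call was lost without MYCN 1, MYCN 3 or MYCN 4 (0.0638 to 0.0854), after rescaling to a common sum (0.114) and against MYC 5 to 8 (0.124). The gene kcnh6, a channel of the ether-a-go-go related group, stood at 9.48 ± 0.93 and 9.84 ± 2.70 FPKM (SD) and did not pass (adjusted p = 0.986).

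The gene kcnc1a, a fast delayed rectifier, did not pass either, at 2.12 to 2.54 FPKM in MYCN and 2.95 to 11.2 FPKM in MYC (log2 fold change 0.89 ± 0.31, adjusted p = 0.0780). Its mean was 3.71 FPKM in MYC 1 to 4 and 7.70 FPKM in MYC 5 to 8. Its duplicate kcnc1b had the opposite sign (-0.60 ± 0.27, adjusted p = 0.159). The 4 tested two-pore channels, which set the resting potential, all had positive log2 fold changes (0.06 to 0.77), none of them called. In the 8 two-pore genes below the filter the means went both ways. Of these, kcnk3a was lower in MYC without overlap, at 0.530 to 3.22 FPKM in MYCN and 0 to 0.340 FPKM in MYC. Of the 12 inward rectifiers only kcnj11l was tested, and it had no call (adjusted p = 0.417). The large-conductance calcium-activated channel gene kcnma1a stood at 9.18 and 6.93 FPKM (adjusted p = 0.306).

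The sodium and calcium channel families had 1 call each, and neither was on a pore-forming gene. The calcium channel family's call was on cacng7a, which is placed there by name. Of 14 sodium channel genes 6 were tested. The beta-3 subunit gene scn3b, which helps the pore reach the membrane, was the most abundant, with means of 42.1 ± 8.64 and 40.0 ± 9.13 FPKM (SD, MYCN and MYC), and did not pass (log2 fold change -0.08 ± 0.21, adjusted p = 0.841). Its mean was 33.1 FPKM in MYC 1 to 4 and 47.0 FPKM in MYC 5 to 8. The beta-1 subunit gene scn1ba stood at 2.42, 1.05, 1.36 and 2.49 FPKM in MYCN and at 0.162, 0.415 and 1.48 FPKM (lowest, median and highest) in MYC. MYC 5 alone lay within the MYCN range. No other MYC library reached 1 FPKM, so scn1ba passed the filter through the group where it is high. It fell (log2 fold change -0.92 ± 0.24, adjusted p = 0.0193, and -1.85 with a pseudocount of 0.1 FPKM), a call lost without MYCN 1 (0.0701) or MYCN 4 (0.0788) and against MYC 5 to 8 (0.0976). Its duplicate scn1bb did not pass (adjusted p = 0.632). The pore-forming genes scn8aa and scn1lab, at 1.30 and 1.01 FPKM on average in MYCN, did not pass (adjusted p = 0.868 and 0.808).

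Of 19 calcium channel genes 10 were tested. The gene cacng7a encodes a transmembrane protein of the group that in mammals regulates AMPA receptors. It stood at 10.6, 4.63, 7.09 and 8.07 FPKM in MYCN and 1.59, 3.55 and 5.42 FPKM (lowest, median and highest) in MYC, with overlap at MYCN 2. It fell (log2 fold change -0.94 ± 0.27, adjusted p = 0.0353), a call lost in 10 of 22 alternatives: without any MYCN library other than MYCN 2, or without the libraries MYC 2, 4, 6 or 8 (0.0511 to 0.121), with no filter (0.0555) and against either MYC set (0.0994 and 0.0866). The related gene cacng2a, or stargazin, did not pass (20.8 FPKM on average in both groups, adjusted p = 0.939).

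The beta subunits, which bring calcium channels to the membrane, were the most abundant calcium channel RNA. The gene cacnb1 stood at 57.1, 46.4, 58.5 and 58.6 FPKM in MYCN and at 19.2, 37.3 and 48.5 FPKM (lowest, median and highest) in MYC, and only MYC 8 lay within the MYCN range. Its log2 fold change of -0.59 ± 0.22 did not pass (adjusted p = 0.0949), though it did when MYCN 1 to 4 and MYC 1 to 4 were blocked by replicate number (-0.66, adjusted p = 0.0407). The gene cacnb4b stood at 37.0 ± 5.95 and 33.9 ± 6.99 FPKM (SD, adjusted p = 0.704). The alpha-2-delta subunit gene cacna2d1a stood at 14.8 and 11.9 FPKM (adjusted p = 0.652). Pore-forming genes were near the filter: the N-type gene cacna1ba stood at 1.105 and 0.694 FPKM and the L-type gene cacna1da at 1.06 and 0.899 FPKM on average, with no call (adjusted p = 0.327 and 0.731).

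**Figure D5:**
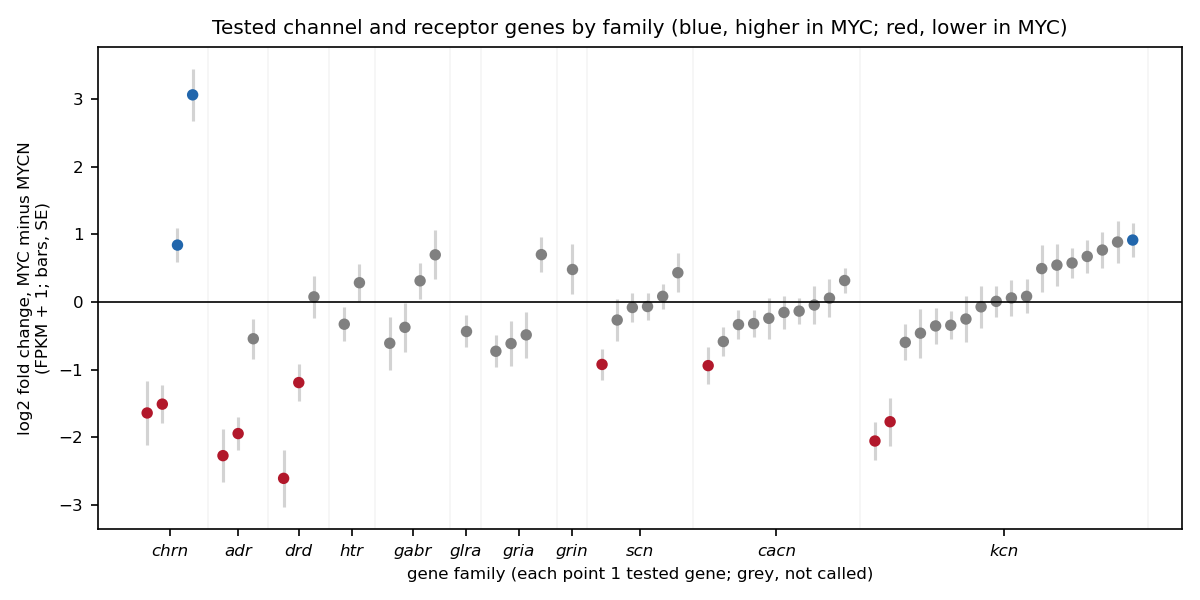
Log2 fold change (MYC minus MYCN, on the FPKM + 1 scale) of the 56 tested genes by family, each point a gene and each bar its SE. The 4 nicotinic genes are all called, 2 up and 2 down. The htr, gabr, glra, gria and grin families hold only grey points, tested without a call.

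The receptors for GABA, glycine, glutamate and serotonin had no call among 12 tested genes of 31. Over all genes tested 13.4% were called, and 12 genes are too few to set none apart from that share. Of the 7 GABA receptor genes 4 were tested. The gene gabrb2, a beta subunit of the receptors that carry fast inhibition in the mammalian brain, had means of 11.2 ± 5.25 and 8.45 ± 3.69 FPKM (SD, MYCN and MYC), with overlap (adjusted p = 0.542). The rho subunit gene gabrr1, known from the retina, had the largest log2 fold change of the family in absolute size, 0.70 ± 0.36 (adjusted p = 0.224), with mean levels of 2.06 FPKM in MYC 1 to 4 and 5.32 FPKM in MYC 5 to 8. The glycine receptor gene glra1 stood at 1.16 and 0.675 FPKM (adjusted p = 0.266), and glra2, below the filter, at 0.939 and 0.208 FPKM.

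Of the 8 AMPA receptor genes 4 were tested. The gene gria2a, whose product keeps calcium out of the pore in mammals, stood at 4.61 ± 1.51 and 2.84 ± 1.53 FPKM (SD, adjusted p = 0.246). The log2 fold change farthest from 0 was that of gria4a (-0.73 ± 0.24, adjusted p = 0.0579), at 1.097 to 2.63 FPKM in MYCN and 0.181 to 1.23 FPKM in MYC. It was called without MYC 4 (0.0485), with no filter (0.0499), after quantile normalisation (0.0366) or rescaling to a common sum (0.0479) and with library weights (0.0270). The gene gria3b, at 0.627 and 1.64 FPKM, had a positive log2 fold change of 0.70 ± 0.26 (adjusted p = 0.0938, and 0.0460 after median-ratio scaling).

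The NMDA receptor gene grin1a, the subunit that every NMDA receptor needs, was listed at 0 in MYC 1, MYC 3 and MYC 7 and stood at 0.601 to 2.78 FPKM in the other MYC libraries. In MYCN it was 0.0605, 0.990, 0.00933 and 0.0156 FPKM, and it had no call (adjusted p = 0.415). Its duplicate grin1b and the kainate receptor gene grik5 did not exceed 0.245 and 0.242 FPKM. Of the 8 serotonin receptor genes, htr5al (1.71 and 2.42 FPKM) and htr2b (1.04 and 0.603 FPKM) were tested without a call (adjusted p = 0.543 and 0.429).

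Genes that work beside these families gave the following counts in the same test. Their lists were chosen by name, with earlier results of these data known. Of 26 tested channels outside the name rule, 2 fell and none rose (7.69% called, beside 13.4% of all genes tested). The list held transient receptor potential, chloride, acid-sensing, anoctamin and other channels (62 measured). The tested ones had a median log2 fold change of -0.31. The cation channel gene trpc4a fell from 1.43 to 5.02 FPKM in MYCN to 0.0120 to 1.09 FPKM in MYC, without overlap (log2 fold change -1.60 ± 0.26, adjusted p = 0.00137). It reached 1 FPKM in 5 libraries, all of MYCN and MYC 3. Thus trpc4a was tested through the group where it is high, and its lack of overlap is no separate support. The endosomal chloride and proton exchanger gene clcn4 fell (log2 fold change -0.75 ± 0.20, adjusted p = 0.0244), a call lost without MYCN 3 or MYCN 4 (0.0692 and 0.0742), after median-ratio scaling (0.0969) or quantile normalisation (0.122), and against either MYC set (0.0661 and 0.106).

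Of 10 tested transmitter receptors outside the name rule (39 measured), 3 fell and 1 rose (40.0% called). Over all genes tested 13.4% were called. Of the receptors that fell, oprd1b and vipr2 passed the filter through the MYCN libraries alone. The 40.0% thus includes genes that were tested because they were high there. The gene oprd1b, a delta opioid receptor, stood at 25.8, 48.9, 10.8 and 19.4 FPKM in MYCN and at 0 to 0.789 FPKM in MYC (log2 fold change -4.27 ± 0.31, adjusted p = 1.35e-06). The gene vipr2, a receptor for vasoactive intestinal peptide, stood at 14.8, 8.32, 10.8 and 10.3 FPKM in MYCN and at 0 to 0.521 FPKM in MYC (-3.39 ± 0.19, adjusted p = 6.93e-08). The gene tacr1a, a receptor for substance P, stood at 20.8, 19.3, 24.0 and 35.5 FPKM in MYCN and at 0.897 to 5.62 FPKM in MYC (-2.96 ± 0.33, adjusted p = 7.92e-05). No MYCN library of these 3 genes overlapped a MYC library, and all 3 calls held under every alternative. For oprd1b and vipr2 the lack of overlap follows from the filter, since only the 4 MYCN libraries reached 1 FPKM. Both genes were thus tested through the group where they are high. Nearly all alternatives kept the genes chosen by that filter, so holding under them is no separate support. The adenosine receptor gene adora2b rose by 1.32 ± 0.31 (adjusted p = 0.0125), a call lost against MYC 5 to 8 (0.0743).

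Of 43 tested partners of channels and receptors (scaffolds, neurexins, neuroligins and the like, 55 measured), 4 fell and 3 rose (16.3% called), near the 13.4% of all genes. The presynaptic adhesion genes nrxn3b and nrxn2b fell, with log2 fold changes of -1.49 ± 0.27 and -1.75 ± 0.34 (adjusted p = 0.00253 and 0.00415). The gene nlgn4a, a neuroligin and so a postsynaptic partner of neurexins, rose from 1.92, 3.61, 0.714 and 7.91 FPKM in MYCN to 9.34 to 29.5 FPKM in MYC (2.18 ± 0.41, adjusted p = 0.00349). The gene fgf12b, an intracellular factor that binds sodium channels, rose from 8.02 to 12.7 FPKM in MYCN to 17.8 to 28.1 FPKM in MYC (0.98 ± 0.18, adjusted p = 0.00306). In none of these 4 genes did the groups overlap, but they were picked by their small p, so this is no separate support. Of the 43 tested partners 5 did not overlap, beside 9.33% of all genes tested.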

How the data were processed

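The authors deposited 1 table of FPKM values per gene and library, and per the submitters' processing notes used cutadapt, TopHat2 2.0.11 and Cufflinks 2.2.1. The genome build, the annotation and the handling of reads shared by near-identical copies (such as the duplicated genes here) are not given in the sources used here. FPKM carries no read count, so the depth is unknown, no counting interval is given, and the replicate libraries alone set the precision. Values were taken as log2(FPKM + 1), which understates the change of low genes. Tested were genes that reached 1 FPKM in 4 or more of the 12 libraries, with limma 3.58.1 in R 4.3.3 (lmFit, eBayes with trend), as the difference MYC minus MYCN. Tests were two-sided, p-values were adjusted by Benjamini-Hochberg over all genes tested, and the threshold was 0.05. "Rose" and "fell" mean higher and lower in MYC past it. The fit was tested on simulated data.

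Members and lists were chosen with earlier results of these data known. Named were called members, the 2 most abundant of each family, the largest absolute log2 fold change in families with 4 or more tested, and the called genes of other lists with the 4 smallest p. Some results that this rule names are not reported here. Other names were chosen after their values were seen, and marker lists are given by counts and sums. Of the 153 symbols 139 matched RefSeq symbols. Alternatives were the pseudocount, filter, scaling, library weights, MYC sets, replicate block and each library left out. Same-numbered MYCN and MYC libraries deviated together across genes (r = 0.249, 0.379, 0.534 and 0.148, all over 0.1). Pairs with different numbers were not examined, so these values cannot show that a shared number ties libraries together. No label says what a shared number means, and blocked values are given where they change a call.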

Additional observations from a re-analysis of the deposited data

Results flagged for a closer look

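Within a genotype, 6 values of named members stood apart from the others of their group, of 64 groups examined on the log2(FPKM + 1) scale, where chance flags about 1 in 20 (3.2). The calcium channel gene cacnb1 was low in MYCN 2 (46.4 FPKM, the next MYCN library at 57.1) and in MYC 2 (19.2 FPKM, next 34.3). The gene cacnb4b was low in MYCN 3 (28.1 FPKM, next 39.1). The NMDA receptor gene grin1a was high in MYCN 2 (0.990 FPKM, next 0.0605). The gene kcnq1 was high for a MYC library in MYC 3 (0.267 FPKM, next 0.105), still under every MYCN library. The sodium channel gene scn1ba was high in MYC 5 (1.48 FPKM, next 0.565).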

How the results depend on the processing

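The count of members called higher (3) was 5 after median-ratio scaling and 1 after rescaling to a common sum, and 1 to 3 with any library left out. The count called lower (10 of 56 tested) was 6 against MYC 5 to 8 alone and 6 to 10 with any library left out. With a filter of 5 FPKM it was 6 of the 22 members still tested, so that count is not a smaller share. These counts are not set beside the shares of all genes called. Over MYCN 1 to 4 and MYC 1 to 4, blocked by replicate number, the counts were 4 higher and 14 lower, and the same 8 libraries without the block gave 2 and 8. All 13 calls from the 12 libraries were among the blocked ones. Of the named genes, cacnb1, cacng7a, chrnb3a, kcnip3b and clcn4 had a call with the block and none in the same libraries without it. No called gene changed sign. Genes without a call did. The log2 fold change of drd2a (0.08) was -0.087 on the common sum, -0.070 against MYC 1 to 4 with or without the block, -0.017 with library weights and -0.197 to 0.345 with a library left out. That of kcnh6 (0.01) was -0.16 on the common sum, -0.20 against MYC 1 to 4 with or without the block and -0.0535 to 0.112 with a library left out. Against MYC 5 to 8, htr5al was -0.045, scn1bb 0.041 and scn3b 0.17, and scn3b was -0.194 to 0.0118 with a library left out. The cause of these shifts was not tested. Of the alternatives to named members' results, 554 kept direction and side of the threshold, 46 lost a call, 7 gained one and 17 changed sign. For the other named genes, alternatives added after seeing the data kept 211 and lost 7 calls.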
